A study of Mus musculus with 6 samples.

Results

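The AP-1 and Batf factors are 10 genes, Fos, Fosb, Fosl1, Fosl2, Jun, Junb, Jund, Batf, Batf3 and Atf3, of the 21951 protein-coding genes annotated in the mouse genome. They were chosen by name, as the genes of the Fos and Jun families together with Batf, Batf3 and the closely related Atf3. Batf2, also of the Batf family, was not among them and is given with the other bZIP genes further on. The promoters of the 10 factors were examined for peaks of H3K4me3. This histone mark is found at the start sites of genes that are active or poised for activity. H3K4me3 ChIP-seq had been performed in Scid.adh.2C2, a pro-T cell line, and in 230-238, a pre-B cell line, with 2 H3K4me3 libraries and 1 input library per line. Scid.adh.2C2 is a subclone of a tumor line that arose spontaneously in the thymus of a CB17-Prkdc scid mouse, which lacks a functional kinase for joining DNA ends, and 230-238 was transformed with the Abelson virus, whose oncogene is a constantly active tyrosine kinase. Each line thus stands for its cell type through 1 transformed line, and both were grown without further treatment in RPMI1640 with serum, gentamicin and β-mercaptoethanol, the medium of Scid.adh.2C2 holding pyruvate and non-essential amino acids as well and that of 230-238 HEPES. For each line 1 peak list was used in which both libraries were combined, so that the error of a value and the sequencing depth are not known, and no difference between the lines could be tested.

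Fos and Jun proteins form dimers through a leucine zipper and bind the AP-1 site of the DNA through the adjoining basic region, the arrangement that gives the bZIP proteins their name. Fos proteins do not pair with each other and mostly take a Jun partner, whereas Jun proteins also pair with each other, and Batf proteins, which lack a domain for activating transcription, compete with Fos for Jun or bind composite sites together with IRF proteins. Many of these genes are immediate early genes, which are switched on within minutes by growth factor, antigen receptor or stress signals through MAP kinases, and in lymphocytes AP-1 acts with NFAT on cytokine genes.

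The list of Scid.adh.2C2 held 15513 peaks with a median fold enrichment over background of 20.3, and that of 230-238 held 19604 peaks with a median of 15.4. Promoter windows reached 2500 bp to both sides of each TSS in GENCODE vM21 (GRCm38), and a gene was called marked if at least 1 bp of any of its windows lay under a peak. The highest promoter peak of a marked coding gene had a median fold enrichment of 27.1 in Scid.adh.2C2 and of 21.7 in 230-238, and therefore fold enrichments were placed only within their own list. All 8 T cell markers examined were marked in Scid.adh.2C2, and 2 of them, Cd3d and Tcf7, also in 230-238. Conversely, all 8 B cell markers were marked in 230-238 and 1 of them, Vpreb1, also in Scid.adh.2C2.

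In Scid.adh.2C2, 5 of the 10 factors had a marked promoter, against 45.5% of all protein-coding genes, and in 230-238 this was the case for 7 of 10, against 48.2%. Fos, Fosb, Fosl2, Junb and Batf were marked in both lines (5 of 10, against 42.2%). Jun and Atf3 were marked in 230-238 only (2 of 10, against 5.96%), and no factor was marked in Scid.adh.2C2 only (0 of 10, against 3.28%). Fosl1, Jund and Batf3 had no promoter peak in the list of either line (3 of 10, against 48.6%). With 10 genes, each gene moves these shares by 10 percentage points, and the count for 230-238 only rests on 2 genes, of which Atf3 is the less firm, as described further on. The plot of fold enrichment by factor shows these peaks against the range of all marked genes.

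**Figure D1:**
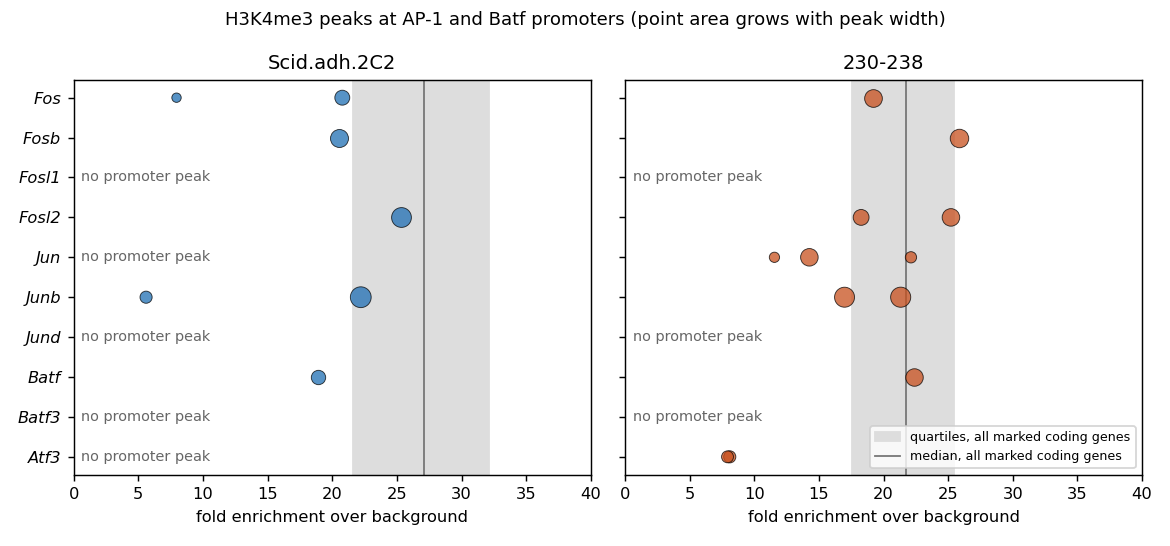
Fold enrichment over background (x axis) of every H3K4me3 peak in the promoter windows of the 10 factors (rows) in Scid.adh.2C2 (left) and 230-238 (right), with the area of a point growing with the width of the peak. The grey band spans the quartiles and the grey line the median (27.1 and 21.7) of the highest promoter peak of all marked coding genes; every factor lies left of the line in Scid.adh.2C2, whereas Fosb, Fosl2, Batf and Jun reach past it in 230-238.

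The promoter sequences of Fos, Jun, Batf and Atf3 are shown. These are the factors whose RefSeq promoter window held a core of the sites that bZIP proteins bind. The core found in Fos, Batf and Atf3 was searched only after the sequences had been read. The 4 factors also differed in their marks: Fos and Batf were marked in both lines, and Jun and Atf3 in 230-238 only. The sequences are those of RefSeq on GRCm38.p6, 5′ to 3′ on the strand of the gene, up to the base before the RefSeq start site (for Batf, up to the base before the GENCODE TSS). Capitals mark TGACATCA, a match to TGACNTCA, in Jun and the core TGACGT, or its reverse complement ACGTCA, in the others. That of Fos is chr12:85473640-85473889 (plus strand), that of Jun chr4:95052223-95052472 (minus strand), that of Batf chr12:85686470-85686668 (plus strand) and that of Atf3 chr1:191183334-191183583 (minus strand).
Fos: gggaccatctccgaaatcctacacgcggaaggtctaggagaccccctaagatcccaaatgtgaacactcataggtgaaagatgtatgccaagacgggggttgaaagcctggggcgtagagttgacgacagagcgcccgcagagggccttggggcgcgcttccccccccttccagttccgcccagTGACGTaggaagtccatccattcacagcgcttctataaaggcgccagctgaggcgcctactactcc
Jun: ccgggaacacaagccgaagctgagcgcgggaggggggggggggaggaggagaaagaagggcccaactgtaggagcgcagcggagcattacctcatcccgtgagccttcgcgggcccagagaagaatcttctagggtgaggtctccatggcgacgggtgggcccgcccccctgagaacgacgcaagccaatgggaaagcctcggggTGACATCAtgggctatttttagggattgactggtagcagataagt
Batf: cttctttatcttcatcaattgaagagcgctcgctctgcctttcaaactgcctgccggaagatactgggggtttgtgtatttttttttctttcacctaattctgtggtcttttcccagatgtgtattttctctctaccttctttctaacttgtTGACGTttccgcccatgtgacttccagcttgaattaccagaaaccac
Atf3: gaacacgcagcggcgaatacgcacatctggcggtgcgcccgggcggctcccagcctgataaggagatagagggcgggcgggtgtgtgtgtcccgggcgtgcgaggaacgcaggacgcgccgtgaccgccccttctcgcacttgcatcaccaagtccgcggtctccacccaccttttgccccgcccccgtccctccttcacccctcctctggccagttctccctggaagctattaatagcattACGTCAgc

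In the RefSeq windows of 9 factors, from 250 bases before the start site to 50 bases after it, no match to the AP-1 site TGANTCA was found on either strand, and none to the CArG box bound by the serum response factor. Sequence further upstream was not searched, so that sites beyond these windows were not assessed. TGANTCA was present in 7.81% of all 32841 promoter windows and the CArG box in 1.63%. Jun held TGACATCA starting at −45 from its start site, and TGACNTCA was present in 8.83% of all windows. The core TGACGT, which was added to the search after the sequences had been read and which overlaps TGACNTCA where N is G, started at −66 in Fos, at −98 in Batf and at −8 in Atf3, and was present in 7.52% of all windows. The TATA box TATAAA was found at −33 in Fos and at 1 in Junb, and in 13.6% of all windows. The CCAAT box was found at −65 in Jun, at −36 in Junb and, on the other strand, at 6 in Atf3, and in 37.4% of all windows. The GC box GGGCGG was found in Fos, Fosb, Fosl2, Jun, Batf, Batf3 and Atf3, up to 5 times, and in 35.7% of all windows.

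The windows differed in their number of CpG dinucleotides. Batf3 (34), Fosl2 (32), Atf3 (27), Fosb (25), Junb (21), Fos (20) and Jun (15) had 15 or more CpGs in the 300 bases, whereas Batf had 9 and Jund 3. In both lines, the median was 21 for marked and 5 for unmarked coding genes. Among the factors the order was not that of the marks, with Batf3, which had the highest number of CpGs, unmarked in both lines, and Batf, with 9, marked in both. The RefSeq start of Jund lies at −1210 from the GENCODE TSS used for the peaks, so that its window describes another start site. That of Fosl2 lies 671 bp downstream of the principal TSS, and its window of 300 bases lies wholly downstream of this TSS. Smaller offsets were found for Batf3 (89 bp), Batf (51 bp) and Junb (−30 bp), and the positions of sequence matches are counted from the RefSeq start.

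Of the Fos family, which forms the classic AP-1 dimer with Jun, Fos, Fosb and Fosl2 were marked in both lines. Fos itself, the prototype immediate early gene, lies on chromosome 12 (85473890 to 85477273, plus strand, ENSMUSG00000021250). In Scid.adh.2C2, a peak of 2014 bp from 85472901 to 85474914 contained all 3 of its TSSs and was 20.8-fold enriched (−log10 q of 87.0), with its summit at −197 bp from the principal TSS. A further peak of 359 bp and 7.95-fold enrichment lay upstream, from 85472356 to 85472714, behind a gap of 186 bp. In 230-238, 1 peak of 3131 bp from 85471700 to 85474830 spanned most of this stretch and contained 2 of the 3 TSSs. It was 19.2-fold enriched (−log10 q of 71.3) and had its summit at −1783. The summit was thus next to the TSS in the pro-T line and at the upstream end of the peak in the pre-B line. Of the marked coding genes, 21.4% had a lower fold enrichment than Fos in Scid.adh.2C2 and 33.3% in 230-238.

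Fosb, which encodes a Fos protein also induced by signals and whose short splice form lacks the activation domain, lies on chromosome 7 (19302696 to 19310051, minus strand, ENSMUSG00000003545) and had 1 wide peak per line that contained its 4 TSSs. This peak measured 3257 bp and was 20.5-fold enriched in Scid.adh.2C2 (19307668 to 19310924, −log10 q of 85.6), and it measured 3472 bp and was 25.9-fold enriched in 230-238 (19307521 to 19310992, −log10 q of 139). The summits lay in an intron, at 1618 bp and 1637 bp downstream of the principal TSS. The position of Fosb within its list differed most among the shared factors. In Scid.adh.2C2, 20.8% of the marked coding genes had a lower fold enrichment, and in 230-238 77.3% did. The percentile thus rose by 56.6 points from Scid.adh.2C2 to 230-238, a larger rise than that of 94.1% of the 9261 genes marked in both lines.

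Fosl2 (Fra-2), a Fos protein without the C-terminal activation domain of Fos, lies on chromosome 5 (32135801 to 32157842, plus strand, ENSMUSG00000029135). Its promoter in Scid.adh.2C2 carried 1 peak of 4090 bp from 32132841 to 32136930, which was 25.3-fold enriched, ranked 376 in width of the 15513 peaks and had its summit at −16. In 230-238 it carried a peak of 2362 bp and 18.3-fold enrichment from 32132550 to 32134911 and a peak of 3057 bp and 25.2-fold enrichment from 32134990 to 32138046, separated by a gap of 78 bp. The higher of these contained the principal TSS and had its summit in a coding exon, 972 bp downstream. The intronic TSS of Fosl2, 10720 bp downstream, lay in no peak in either line. The promoter window of Gm10463 shares all of these peaks, and they cannot be assigned to Fosl2 alone.

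Fosl1 (Fra-1), which is itself a classic target of AP-1, lies on chromosome 19 (5447547 to 5455946, plus strand, ENSMUSG00000024912) and was unmarked in both lines. The nearest peak began 8460 bp from the principal TSS of Fosl1 in Scid.adh.2C2 and 8498 bp in 230-238, just past the end of the gene, and belonged to the promoter windows of Ccdc85b and Fibp, with a fold enrichment of 22.8 and 24.8. The interval without peaks around Fosl1 was 21.5 kb in Scid.adh.2C2 and 21.9 kb in 230-238, and Fosl1 was the only coding gene that lay wholly in it. Of the 16 other coding genes within 100 kb, 11 were marked in Scid.adh.2C2 and 10 in 230-238. Fosl1 was therefore an unmarked gene in a neighborhood with many marked promoters.

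In the Jun family, whose proteins are the usual partners of Fos and Batf, Jun, Junb and Jund each had a different state. Jun, the founding member and the substrate of the kinase JNK, lies on chromosome 4 (95049034 to 95052222, minus strand, ENSMUSG00000052684) and has 1 TSS and no intron. In Scid.adh.2C2 its promoter held no peak, and the nearest peak was 72327 bp away, at the promoter of Mysm1. In 230-238 the window held 3 peaks that covered 3922 of 5001 bp (78.4%). Of the marked coding genes of 230-238, 97.6% had a smaller share of their windows covered, and 83.5% had a shorter covered length.

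The peak over the gene body of Jun measured 3061 bp (95049163 to 95052223) and was 14.3-fold enriched (−log10 q of 68.6), with its summit in the coding exon 1320 bp downstream of the TSS. It ended 1 bp upstream of the TSS. The peak with the highest fold enrichment of the 3, 22.1 (−log10 q of 87.0), measured 848 bp (95052473 to 95053320) and had its summit at −756. A peak of 572 bp and 11.6-fold enrichment followed further upstream (95053423 to 95053994). Between the body peak and the next one, 249 bp from −250 to −2 were free of peaks, and this gap matches the 250 bases of Jun shown above to within 1 base, the stretch with TGACATCA and the CCAAT box. Both upstream peaks also lay in the window of Junos, the divergent noncoding neighbor of Jun, and the body peak in those of Junos and Gm12703. In Scid.adh.2C2, Jun was the only coding gene that lay wholly inside an interval of 577 kb without peaks (94979896 to 95557025), in which 230-238 had 8 peaks.

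Junb, which can oppose Jun on some promoters, lies on chromosome 8 (84974484 to 84978718, minus strand, ENSMUSG00000052837) and has no intron either. It had the widest marks of the factors in both lines. In Scid.adh.2C2, a peak of 4590 bp (84975858 to 84980447, 22.2-fold, −log10 q of 80.3) contained both TSSs, ranked 225 in width of 15513 and had its summit in the coding exon, 1003 bp downstream. A peak of 1086 bp and 5.60-fold enrichment lay at the 3′ end (84974550 to 84975635). It had an IDR score of 902, the only peak at a promoter of these factors below the highest score of 1000. In 230-238, peaks of 4237 bp (84974461 to 84978697, 21.3-fold, summit at 1625 bp in the 3′ UTR) and 4179 bp (84978767 to 84982945, 17.0-fold, summit at −1725) lay on either side of the principal TSS, which was in a gap of 69 bp from −48 to 20. Together the peaks covered 79.1% of the promoter windows in Scid.adh.2C2 and 93.2% in 230-238, and 98.7% and 98.5% of the marked coding genes had a shorter covered length.

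The bodies of Jun and Junb lay almost wholly under peaks. For Jun this was 96.0% in 230-238, and for Junb 93.2% of the annotated gene in Scid.adh.2C2 and 99.5% in 230-238. The median over marked coding genes of at most 5000 bp was 43.0% in Scid.adh.2C2 (n = 1116) and 46.2% in 230-238 (n = 1220), with upper quartiles of 72.1% and 80.0%. Fos, with 3384 bp a gene of similar length but with introns, had 30.3% and 27.8% of its body covered.

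Jund, the Jun protein present in most resting cells, lies on chromosome 8 (70698949 to 70700616, plus strand, ENSMUSG00000071076) and was unmarked in both lists. The nearest peak was 24959 bp away in Scid.adh.2C2 and 24962 bp away in 230-238, at the promoter of Lsm4, with a fold enrichment of 35.4 and 15.8. The intervals without peaks reached downstream to 70864588 and 70864780 and measured 190.6 kb and 190.8 kb. These intervals held the same 11 coding genes in both lines, Jund, Iqcn, Gm3336, Pde4c, Rab3a, Mpv17l2, Pik3r2, Mast3, Il12rb1, Arrdc2 and Kcnn1. Of all intervals between neighboring peaks, with or without a gene, 135 of 15492 in Scid.adh.2C2 and 135 of 19583 in 230-238 held at least 11 coding genes. The share of coding genes that lie in such intervals was not counted. The peaks in the map around Jund stand on both sides of this interval, and the absence of peaks from it holds for these lists only, since neither reads nor input coverage were examined and whether the lists used here are complete over this stretch could not be checked.

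**Figure D2:**
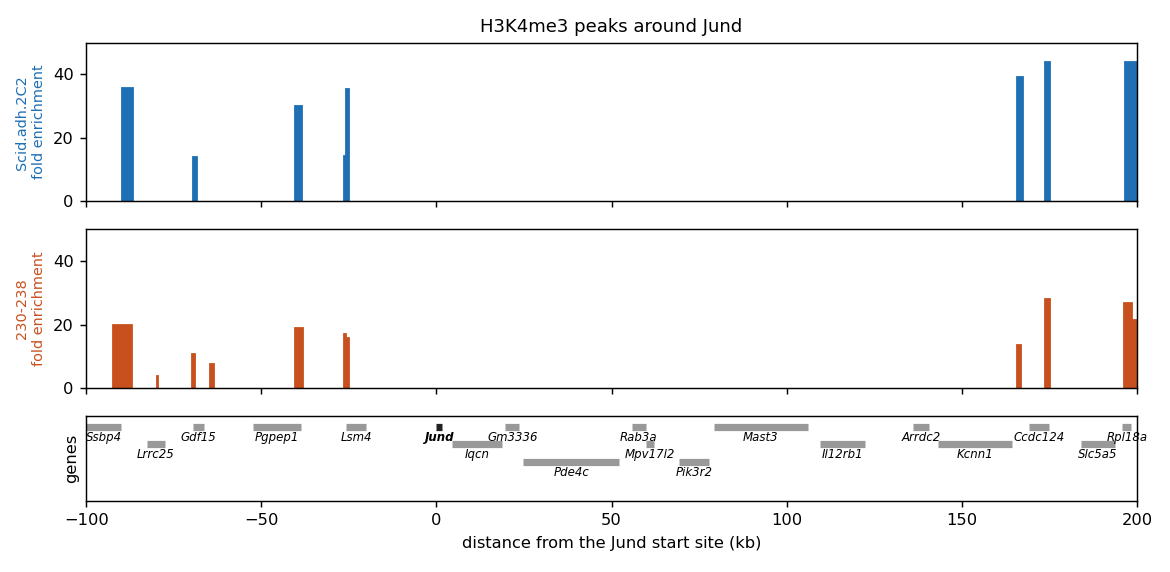
Fold enrichment over background (y axis) of H3K4me3 peaks in Scid.adh.2C2 (top) and 230-238 (middle) against the distance from the Jund TSS in kb, with the protein-coding genes (bottom; Jund in black). Upstream, the last peaks end 24959 bp and 24962 bp before Jund, and the interval of 190.6 kb and 190.8 kb that follows has none, although 11 coding genes lie in it.

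Among Batf, Batf3 and Atf3, Batf was marked in both lines, Atf3 in 230-238 only and Batf3 in neither. Batf, needed for class switching in B cells and for the differentiation of several helper T cells, lies on chromosome 12 (85686669 to 85709087, plus strand, ENSMUSG00000034266). In Scid.adh.2C2 its peak of 1810 bp (85685827 to 85687636) was 18.9-fold enriched (−log10 q of 65.7), with the summit in the 5′ UTR 88 bp downstream of the TSS. In 230-238 it measured 3042 bp (85685588 to 85688629) and was 22.4-fold enriched (−log10 q of 88.5), with the summit in an intron 710 bp downstream. Batf had the narrowest covered length of the shared factors in Scid.adh.2C2, and 26.5% of the marked coding genes were covered less, against 62.9% in 230-238. The covered length was 1.68 times larger in 230-238, a larger ratio than that of 89.7% of the 9261 genes marked in both lines.

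Batf3, a factor of dendritic cells that present antigen to cytotoxic T cells, lies on chromosome 1 (191097847 to 191108945, plus strand, ENSMUSG00000026630), and none of its 5 TSSs had a peak within 2500 bp. The nearest peak was 33902 bp away in Scid.adh.2C2, at the promoters of Nsl1 and Tatdn3. In 230-238 it was 11956 bp away, in the body of Nsl1, with a fold enrichment of 11.3.

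Atf3, a repressor induced by stress that pairs with Jun proteins, lies next to Batf3 on chromosome 1 (191170296 to 191218039, minus strand, ENSMUSG00000026628), with 85.0 kb between the principal TSSs. In Scid.adh.2C2 the peak nearest to the principal TSS was 40528 bp away, at the promoter of D730003I15Rik. In 230-238, a peak of 1092 bp and 8.10-fold enrichment (191179867 to 191180958) lay 2382 bp to 3473 bp downstream of the principal TSS and a peak of 1019 bp and 7.93-fold enrichment (191185600 to 191186618) from −3278 to −2260. Only 592 of 10234 bp of its windows were covered (5.78%), none of the 3 TSSs was inside a peak, and the 4641 bp between the peaks held the principal TSS. Only 1.34% of the marked coding genes of 230-238 had a lower fold enrichment. The call for Atf3 rests on the edges of these peaks and was lost with a window of 1000 bp, with peaks of at least 10-fold enrichment, with equal numbers of peaks in both lists, with the summit required inside the window and with the most upstream TSS only. Within the gene, further upstream of the principal TSS, 230-238 had higher peaks of 16.9-fold enrichment at −10.7 kb (1694 bp) and of 10.5-fold enrichment at −15.0 kb (503 bp), which lie in the promoter window of Gm24748, a gene inside Atf3.

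The extents of all promoter peaks are drawn in the map by distance from the TSS. A peak contained the principal TSS of Fos, Fosb, Fosl2 and Batf in both lines, of Junb in Scid.adh.2C2 and of Jun in 230-238, where it reached 1 bp past the TSS. At Junb and Atf3 in 230-238 the principal TSS lay between peaks.

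**Figure D3:**
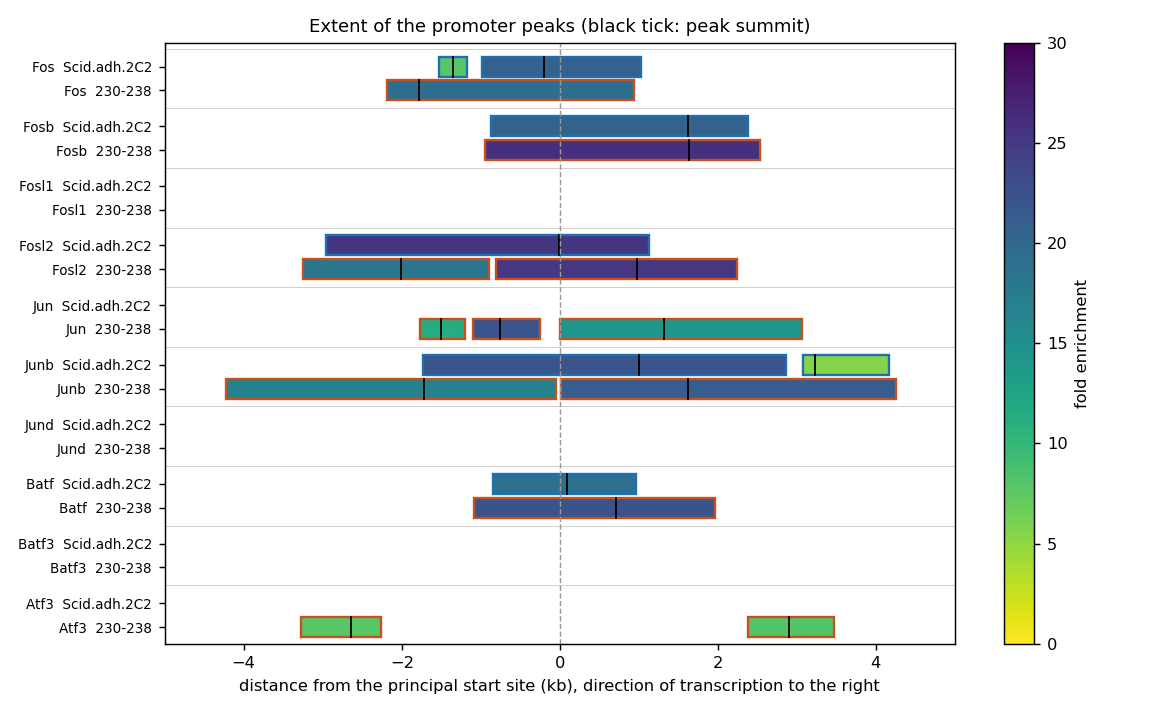
H3K4me3 peaks in the promoter windows of the 10 factors, drawn as bars against the distance from the principal TSS in kb, with transcription to the right, for Scid.adh.2C2 (blue outline) and 230-238 (orange outline); the fill gives the fold enrichment and the black tick the summit. The Junb bars are the longest, the Jun bars of 230-238 leave a gap of 249 bp before the TSS, and the Atf3 bars of 230-238 leave the 4641 bp around the TSS free.

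In the order of fold enrichment, Scid.adh.2C2 had Fosl2 (25.3), Junb (22.2), Fos (20.8), Fosb (20.5) and Batf (18.9), and 230-238 had Fosb (25.9), Fosl2 (25.2), Batf (22.4), Jun (22.1), Junb (21.3), Fos (19.2) and Atf3 (8.10). No spread was available to say which neighbors in these orders differ. The median over the marked factors was 20.8 in Scid.adh.2C2, below the 27.1 of all marked coding genes, and 22.1 in 230-238, next to the 21.7 of all marked coding genes. In Scid.adh.2C2 each of the 5 factors was below the median of all marked coding genes, with between 16.1% and 41.2% of these genes lower.

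For the factors marked in both lines, the peaks of Scid.adh.2C2 lay nearly within those of 230-238. Between 96.5% (Fos) and 100% (Fosb and Batf) of the peak length of Scid.adh.2C2 was shared, and between 59.5% (Batf) and 93.8% (Fosb) of that of 230-238. The covered length was larger in 230-238 by 1.07 times for Fosb, 1.18 times for Junb, 1.29 times for Fosl2, 1.32 times for Fos and 1.68 times for Batf. With a window of 1000 bp the direction turned for Fos, which had 2014 bp covered in Scid.adh.2C2 and 1941 bp in 230-238, and the other differences shrank or stayed small, with 2325 bp and 2393 bp for Fosb, 2130 bp and 2295 bp for Fosl2, 3780 bp and 3933 bp for Junb and 1810 bp and 2339 bp for Batf. Over all 9261 genes marked in both lines the median ratio was 1.11, and 74.0% of them were covered more in 230-238 as well, so that a larger length in 230-238 was the common state of shared genes. The ratio of Fosb was below this median and those of the other 4 factors above it. Percentiles of fold enrichment were taken among all marked coding genes of each line. In 230-238 they were higher by 11.9 points for Fos, 20.7 for Junb, 32.3 for Fosl2, 38.2 for Batf and 56.6 for Fosb. All 5 rose, beside a median of 0.31 points over all shared genes. Of the shared genes, 64.9% had a smaller shift than Fos, 73.9% than Junb, 82.5% than Fosl2, 86.0% than Batf and 94.1% than Fosb. The 5 factors started low in Scid.adh.2C2, at percentiles from 16.1 to 41.2, and they were not compared with shared genes of an equally low start. The part of the larger number of peaks in the list of 230-238 in these values was not tested.

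Peaks outside the promoter window of any annotated gene were also counted within 100 kb of the TSS of each factor. Fos had 3 of these in Scid.adh.2C2 and 5 in 230-238. In both lines they lay at about −29.2 kb (16.1-fold in Scid.adh.2C2 and 15.5-fold in 230-238), at −18.2 kb and −18.0 kb (15.4-fold and 16.0-fold), and downstream at 12.5 kb and 12.9 kb (24.2-fold and 25.8-fold). The downstream peak, with a width of 2636 bp in Scid.adh.2C2 (85485505 to 85488140) and 2698 bp in 230-238 (85485584 to 85488281), was higher than the Fos promoter peak in each list. The peaks at −26.4 kb (6.40-fold) and 23.8 kb (9.72-fold) were in 230-238 only.

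Batf showed the opposite distribution. A peak of 1760 bp in an intron of Batf, 18.8 kb downstream of the TSS (85704759 to 85706518), was 23.3-fold enriched in Scid.adh.2C2, above the 18.9 of the Batf promoter in the same list, and had no counterpart in 230-238. A further peak at −48.0 kb, within Jdp2, was 8.19-fold enriched and again in Scid.adh.2C2 only, and 230-238 had no peak of this kind within 100 kb of Batf. Between Fos and Batf, whose TSSs are 212.8 kb apart, lies Jdp2, a bZIP repressor of AP-1, which was marked in both lines (32.2-fold and 20.0-fold). The pro-T line thus had the peak inside Batf and the pre-B line the additional peaks around Fos, as the map from Fos to Batf shows.

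**Figure D4:**
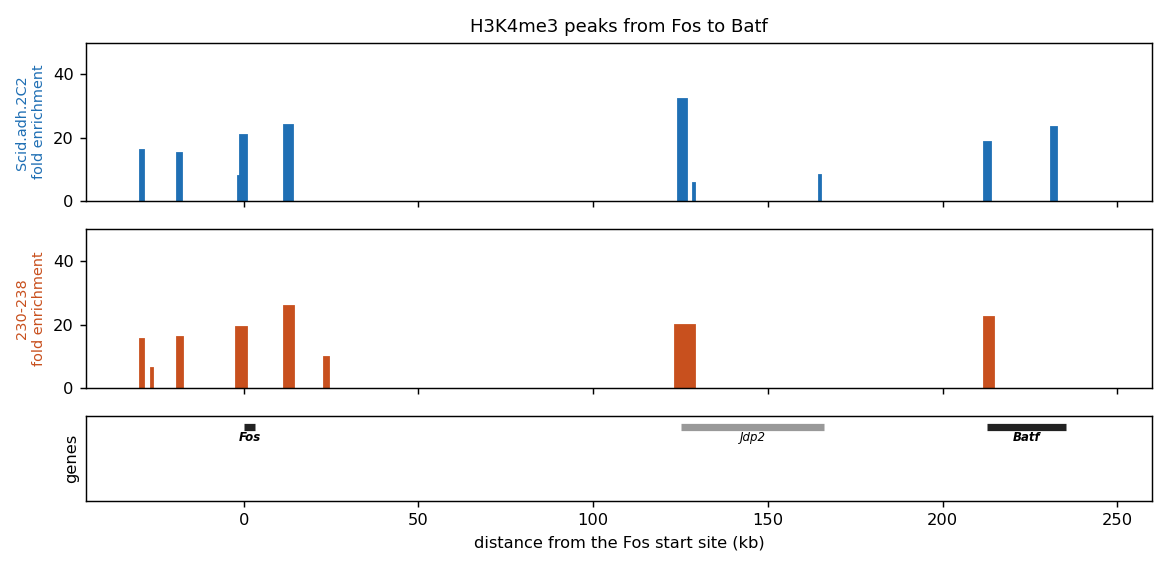
Fold enrichment over background (y axis) of H3K4me3 peaks in Scid.adh.2C2 (top, 10 peaks) and 230-238 (middle, 8 peaks) against the distance from the Fos TSS in kb, with the protein-coding genes (bottom; Fos and Batf in black). The peak 12.5 kb and 12.9 kb downstream of Fos is present in both lines, whereas the 23.3-fold enriched peak inside Batf is present in Scid.adh.2C2 only.

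Near the other factors, Fosb had a distal peak within Rtn2 that was 23.4-fold enriched in Scid.adh.2C2 and 27.1-fold enriched in 230-238, 14.2 kb and 14.3 kb downstream. It had another at −9.9 kb (14.8-fold) in Scid.adh.2C2 and at −9.8 kb (7.99-fold) in 230-238, and 230-238 alone had peaks at −6.4 kb (8.28-fold) and −17.2 kb (10.4-fold). Junb had a distal peak at −7.5 kb in Scid.adh.2C2 (20.1-fold) and at −7.0 kb in 230-238 (16.4-fold). Peaks in 230-238 only were found at −54.4 kb of Jun, inside Junos (12.5-fold), and at −31.2 kb of Fosl2 (11.7-fold). Fosl1 and Jund had none in either line.

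Around Batf3 and Atf3, distal peaks were found in 230-238 only. They lay at −12.8 kb (11.3-fold), 13.3 kb (6.70-fold) and 26.7 kb (9.59-fold) from the Batf3 TSS, and at −94.9 kb (8.61-fold) from that of Atf3. In Scid.adh.2C2, 159 kb with Batf3, Fam71a and Atf3 (191064424 to 191223867) held no peak, and 230-238 had 7 peaks inside this stretch, of which the highest was 16.9-fold enriched. The promoter of Nsl1 and Tatdn3 on one side and that of D730003I15Rik on the other, marked in both lines, bound it. Batf3 was thus unmarked in both lines, but had peaks of low to middle fold enrichment on either side in the pre-B line.

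**Figure D5:**
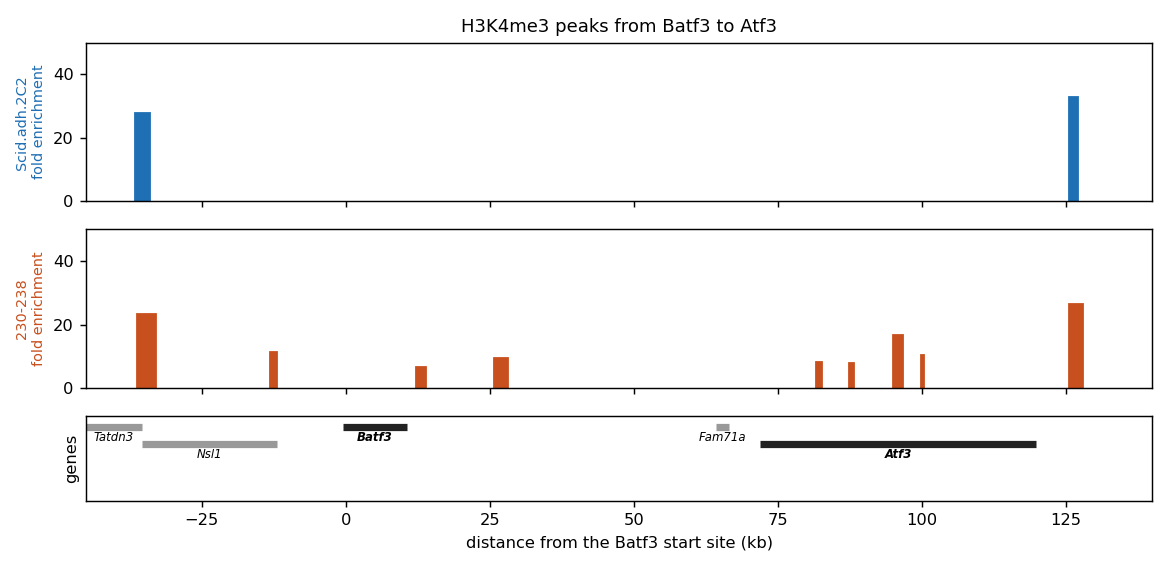
Fold enrichment over background (y axis) of H3K4me3 peaks in Scid.adh.2C2 (top, 2 peaks) and 230-238 (middle, 9 peaks) against the distance from the Batf3 TSS in kb, with the protein-coding genes (bottom; Batf3 and Atf3 in black). Between the outer peaks, which both lines share, Scid.adh.2C2 has none and 230-238 has 7, up to 16.9-fold enriched.

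The genes around the factors were counted in the same way. Of the 12 other coding genes within 100 kb of Jund, 4 were marked in Scid.adh.2C2 and 5 in 230-238, and 7 in neither. Near Junb, 12 and 14 of 18 were marked, and near Fosb 10 and 9 of 12. Jun had 1 such gene, Mysm1, and Fos 1, Tmed10, both marked in each line. Near Batf3, unmarked itself, 3 and 4 of 6 were marked, and the additional gene in 230-238 was the factor Atf3, whose call is less firm. Marked neighbors were thus found beside marked and unmarked factors.

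Partners and regulators of AP-1 were taken from lists of known function. Of 35 other bZIP genes, 24 were marked in Scid.adh.2C2 and 25 in 230-238. Cebpb, a factor of myeloid and inflammatory genes, was marked in Scid.adh.2C2 only (22.9-fold). Atf4, the factor of the integrated stress response (32.3-fold), and Bach2, a repressor that competes with AP-1 in lymphocytes (26.3-fold), were marked in 230-238 only. The relative Batf2 was marked in both lines (20.9-fold in Scid.adh.2C2 and 15.2-fold in 230-238).

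Upstream of the factors, 20 of 26 genes of the Ras and MAP kinase cascade were marked in Scid.adh.2C2 and 23 in 230-238. Map2k6, which activates the p38 kinases, was marked in Scid.adh.2C2 only (33.2-fold), and Mapk7 (23.8-fold), the p38 genes Mapk11 (26.2-fold) and Mapk12 (5.38-fold), and Map3k8 (30.9-fold) in 230-238 only. All 6 serum response factor genes, with Srf and its cofactors, and all 4 ubiquitin ligase genes for Jun, Fbxw7, Itch, Cop1 and Det1, were marked in both lines. Of 10 MAP kinase phosphatases, which switch the cascade off, 7 and 8 were marked, Dusp4 in 230-238 only (23.9-fold). Of the 26 genes of the cascade, 19 were marked in both lines, beside 42.2% of all protein-coding genes. A relation of these marks to the state of Jun was not tested.

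Of 7 partners of composite sites, 5 were marked in each line and 4 in both, with Nfatc2 in Scid.adh.2C2 only (22.1-fold) and Irf8, a partner of Batf, in 230-238 only (28.9-fold). With the most upstream TSS only, 3 were marked in Scid.adh.2C2 and 5 in 230-238. Irf4, the other IRF partner of Batf, was 8.32-fold enriched over 585 bp in Scid.adh.2C2 and 25.2-fold enriched over 4850 bp in 230-238. Of 10 textbook target genes of AP-1, 2 (Ccnd1 and Hmox1) were marked in Scid.adh.2C2 and 5 in 230-238, which had Mmp9 (14.7-fold), Plau (8.70-fold) and Mt2 (27.9-fold) in addition. Il2, Mmp3, Mmp13, Timp1 and Plaur were marked in neither line. These shares stand beside 45.5% and 48.2% of all protein-coding genes, and no list was tested.

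The genes most like Jun and Atf3 were sought among the 1309 coding genes marked in 230-238 only, by the distance between percentiles of fold enrichment and of covered length in this set. For Jun they were P2ry14 (22.1-fold, 3905 bp), Filip1 (22.2-fold, 3993 bp) and B3gnt5 (22.2-fold, 4043 bp), at 0.138, 1.00 and 1.53 percentile points. Within this set Jun stood high, with 74.5% of genes lower in fold enrichment and 88.2% covered less. Atf3 stood low, with 8.02% and 7.68%, and its nearest genes were Ninj2 (7.93-fold, 599 bp), Gas2l2 (8.20-fold, 563 bp) and Slc44a4 (8.11-fold, 652 bp). Jun and Atf3 thus lay in opposite parts of the set.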

How the data were processed

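H3K4me3 ChIP-seq of Scid.adh.2C2 and 230-238 was analysed from 1 peak list per line. According to the study's methods and the submitters' processing notes, the authors used Trim Galore (0.6.7) for trimming, Bowtie2 (2.4.4) for mapping to mm10 (GRCm38) and MACS2 (2.2.7.1) for narrow peaks over the input of the line, followed by a filter on the irreproducible discovery rate (IDR) of 0.05 between replicates. The deposited score (from the IDR), the fold enrichment ratio over background and the −log10 p and q values are the authors' values and were used as they stand, only within a list. The lists give no read counts, so the depth is unknown, and a promoter called unmarked has no peak in the lists used here, whose completeness could not be checked. The list of Scid.adh.2C2 carries another short name of the line, and it was matched to the line through the list of data in the study's supplement. Inputs entered only through the peak calling.

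TSSs were taken from GENCODE vM21 on GRCm38, and peak positions were made 1-based. The principal TSS of a gene, from which distances were counted, is that of the coding transcript with the lowest number in this annotation. A window ran 2500 bp either side of each TSS, a peak of at least 1 bp overlap marked it, and overlapping windows shared peaks. Covered length is the length of the windows under peaks. With 1 combined list per line no test was made, and shares of all 21951 coding genes are given for comparison. RefSeq promoter sequences (GRCm38.p6) matched 9 of 10 factors, with none for Fosl1. Mkl1 and Mkl2 were matched by synonym as Mrtfa and Mrtfb. The genes named besides the factors are those sharing a peak with 1 of them, neighbors within 100 kb, list genes marked in 1 line only, and the 3 genes nearest to a factor marked in 1 line only. List genes marked in neither line, Irf4, Ccnd1 and Hmox1 were named after their values were seen. The factors, lists and rules were chosen with earlier results of these data known. Alternatives were windows of 1000 bp and 5000 bp, peaks of at least 10-fold enrichment, the highest IDR score (1000), lists cut to equal numbers of peaks by −log10 p, the summit inside the window, the most upstream TSS or those of basic transcripts only, and, for covered length, merging of peaks within 1000 bp. The scripts were tested on simulated peaks. Python 3.11.15, numpy 2.4.6, pandas 2.3.3 and matplotlib 3.10.9 were used.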

Additional observations from a re-analysis of the deposited data

How the results depend on the processing

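The number of factors marked in 230-238 only was 1 in place of 2 with a window of 1000 bp, with peaks of at least 10-fold enrichment, with equal numbers of peaks in both lists, with the summit inside the window and with the most upstream TSS only. In all 5 of these settings it was Atf3 that was lost, and no other factor changed its state in either line under the 8 alternatives that apply to it. The number of composite-site partners marked in Scid.adh.2C2 was 3 in place of 5 with the most upstream TSS only. The other 111 counts over lists were within 1.5 times the value reported. Where a promoter peak remained, no highest fold enrichment changed (91 values), and a cut at 10-fold enrichment could not change a value that passed it. In contrast, 13 covered lengths and 11 numbers of peaks were lost or changed by more than 1.5 times. The remaining 167 and 149 stayed within 1.5 times but were not all unchanged. They include the factors without a promoter peak, which gained none. With a window of 1000 bp the covered length of Fos was larger in Scid.adh.2C2 (2014 bp) than in 230-238 (1941 bp), the reverse of the order reported. No paired analysis was possible because each list combines both replicates, and for the same reason no replicate could be left out. Without depth or replicate values, neither the differences between the lines nor the absence of a peak carries an error.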
